A study of Mus musculus with 6 samples.

Results

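Collagen hydroxylases and chaperones are the enzymes and folding helpers that act on procollagen chains in the endoplasmic reticulum (ER), and 10 of their genes were examined among the 53819 genes of the count table. They were taken by symbol, whatever their level, and fall into 4 roles. *Plod1*, *Plod2* and *Plod3* encode the lysyl hydroxylases, *P4ha1*, *P4ha2* and *P4ha3* the catalytic alpha subunits of prolyl 4-hydroxylase, *P3h1* and *Crtap* the prolyl 3-hydroxylase complex, and *Serpinh1* and *Fkbp10* the collagen chaperones HSP47 and FKBP65. RNA came from healing flexor digitorum longus (FDL) tendons of the mouse hind paw, with 3 libraries from Scx-Cre+; DTR F/+ mice (DTR) and 3 from Scx-Cre-; DTR F/+ littermates (WT). Both genotypes carry the Cre-dependent diphtheria toxin receptor, both had the tendon cut and sutured at 10 to 12 weeks of age, both received 5 daily injections of 100 ng diphtheria toxin (DT) from D14 to D18 post-surgery, and both were harvested at D28. In DTR mice the receptor is switched on by Scx-Cre in cells with a history of *Scx* expression. DT therefore targets the broad *Scx* lineage and not 1 of its subpopulations. The paper gives as a limit that the efficiency of the depletion could not be measured. Each library held 1 tendon. The sample titles give D28 as counted from depletion and the protocol as counted from surgery, and the day is used here as in the protocol.

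Procollagen chains are hydroxylated before they fold. Prolyl 4-hydroxylase makes the 4-hydroxyproline that keeps the triple helix stable at body temperature, and lysyl hydroxylases make the hydroxylysine on which sugars and cross-links are later built, with *Plod2* known for the hydroxylysine of the telopeptides that gives the cross-links typical of scar. P3H1, CRTAP and cyclophilin B modify single prolines and help the chains to fold, HSP47 binds the finished helix until it leaves the ER, and FKBP65 is a peptidyl-prolyl isomerase that also assists lysyl hydroxylation. Both kinds of hydroxylase need oxygen, iron, 2-oxoglutarate and ascorbate, and loss of several of these genes causes brittle bone disease. Most of the dry mass of tendon is type I collagen, a substrate of these enzymes.

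The promoters of the prolyl 4-hydroxylase family are shown because its 3 genes are close relatives with unlike values in these tendons, a choice made after those values were seen. The 250 bases before each start site are from RefSeq on GRCm38.p6, all on the + strand, at chr10:59323046-59323295 for *P4ha1*, chr11:54100674-54100923 for *P4ha2* and chr7:100285270-100285519 for *P4ha3*. Capitals mark ACGTG on either strand, the core letters of the hypoxia response element.
P4ha1: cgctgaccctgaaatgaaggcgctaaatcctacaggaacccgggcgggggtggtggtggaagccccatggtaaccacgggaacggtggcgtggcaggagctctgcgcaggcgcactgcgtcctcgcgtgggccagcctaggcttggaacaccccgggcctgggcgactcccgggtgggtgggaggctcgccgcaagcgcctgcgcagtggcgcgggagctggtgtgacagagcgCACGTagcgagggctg
P4ha2: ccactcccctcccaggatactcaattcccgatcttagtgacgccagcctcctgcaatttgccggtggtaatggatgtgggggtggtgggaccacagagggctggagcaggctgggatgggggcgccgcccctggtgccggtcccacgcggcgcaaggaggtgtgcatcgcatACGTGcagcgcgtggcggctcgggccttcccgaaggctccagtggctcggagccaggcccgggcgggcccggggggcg
P4ha3: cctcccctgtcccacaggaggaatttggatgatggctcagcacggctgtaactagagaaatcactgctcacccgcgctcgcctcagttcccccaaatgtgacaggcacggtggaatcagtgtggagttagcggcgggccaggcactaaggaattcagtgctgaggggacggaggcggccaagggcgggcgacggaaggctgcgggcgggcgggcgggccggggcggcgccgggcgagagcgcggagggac
*P4ha1* and *P4ha2* each held 1 ACGTG and *P4ha3* held 0. Of the 8 genes with a promoter in the RefSeq table, 4 had the motif in their first listed promoter (*P4ha1*, *P4ha2*, *Plod3* and *Serpinh1*), against 16.6% of 27025 promoters of the same length. The second listed promoter of *P3h1*, not counted here, held 2 ACGTG. For *Plod1* and *Crtap* the bases just after the start were not found in an annotated transcript of the gene, so their start sites are uncertain. CCAAT was in 2 of the 8 (34.5% of all promoters) and CCACG in 5 (28.2%), and the ER stress response element, in which the latter motif follows the former after 9 bases, was in 0 (0.122% of all). CCACG can share bases with the reverse complement of ACGTG.

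Between 42744138 and 48854310 counts per library lay on genes, and each of the 10 genes had at least 1000 counts in each of the 6 libraries. Together they took 0.166%, 0.168% and 0.207% of all counts across WT replicates 1 to 3, and 0.247%, 0.207% and 0.229% across DTR replicates 1 to 3. The tissue carried its defining markers: *Tnmd* had at least 49766 counts and *Scx* at least 2169 in each library. The libraries stood apart in other tissues, since 30 skeletal muscle genes took 2.33% to 3.17% of the counts in WT, 2.79% in DTR replicate 2, but 0.399% and 0.746% in DTR replicates 1 and 3. Keratinocyte genes took 0.384% and 0.236% in WT replicates 1 and 2 and at most 0.0417% elsewhere. *Xist* had 49303 to 54082 counts in WT replicate 2 and DTR replicates 2 and 3 and at most 4 in the others, so the sexes were mixed in both groups. Values below are normalized counts (scaled by TMM to the mean library size), given as mean ± SD of 3 libraries.

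*Serpinh1* was the most abundant of the 10 per kb of exon, with 14894 normalized counts per kb over the 6 libraries, 3.93 times the next gene. Its lowest library, WT replicate 2 at 10538 per kb, was above the highest library of any other member. *Fkbp10* (3792 per kb) and *Crtap* (3592 per kb) followed, and their ranges overlapped. *Crtap* was separated from *Plod1* (1773 per kb), below which *Plod2* (1650), *P4ha1* (1352), *P4ha3* (1108), *P3h1* (1061) and *Plod3* (920) formed a chain in which each gene's range overlapped the next. *P4ha2* was lowest, at 312 per kb, and its highest library (362) did not reach the lowest of *Plod3* (783). Per kb of exon, the chaperones and *Crtap* were therefore the abundant members in both groups, as the plot of abundance per kb shows. This order depends on the division by exon length. Without it, *Plod1* averaged 11997 normalized counts over the 6 libraries against 11128 for *Fkbp10*, and *Plod2* 8895 against 6365 for *Crtap*.

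**Figure D1:**
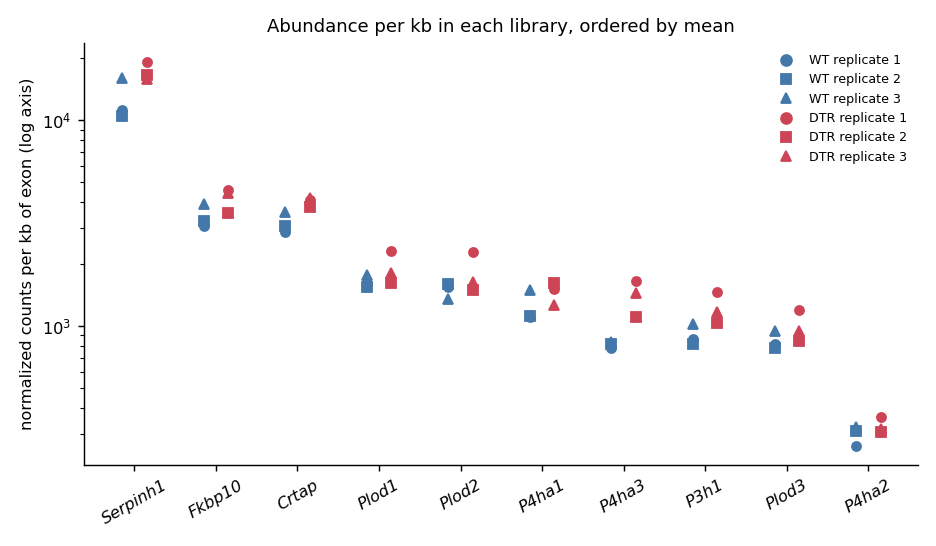
Normalized counts per kb of exon (log axis) for each gene in each library, ordered by the mean of the 6 libraries. Blue symbols are WT and red symbols DTR replicates. *Serpinh1* lies between 10538 and 19211 and *P4ha2* between 262 and 362.

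In the comparison of DTR with WT, which asks how depletion of the *Scx* lineage bore on the healing tendon, all 10 genes had a positive log2 fold change. The values ranged from 0.14 for *P4ha2* to 0.79 for *P4ha3*, with a median of 0.29, while the median over all 17496 genes tested was 0.0082 and 51.5% of them were positive. By edgeR's quasi-likelihood test the adjusted p-values of the 10 ran from 0.260 to 0.657, so that 0 of them passed 0.05, while 0% of all genes passed, with 965 higher and 953 lower at an unadjusted p under 0.05. At an unadjusted p under 0.05, 4 of the 10 were higher (*P4ha3*, *Crtap*, *P3h1* and *Serpinh1*), against 5.52% of all genes. DESeq2, the tool the study used, called 1 of the 10 at an adjusted p under 0.05, *P4ha3*, against 1.12% of all genes called higher. limma-voom called 0 genes in all. In 3 of the 10, *P4ha3*, *P3h1* and *Crtap*, every DTR library was above every WT library, against 8.96% of all genes. In bulk tissue, a change in the number of collagen-making cells and a change in the RNA per cell cannot be told apart.

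The libraries of the DTR group were not alike. DTR replicate 1 was above the whole WT range in all 10 genes, DTR replicate 3 in 6 and DTR replicate 2 in 5, and DTR replicate 1 was the highest of the 6 libraries in 8. The share of all genes above the WT range was not counted for single libraries. These counts can therefore not be read as particular to the 10 genes. DTR replicate 2 was the lowest DTR library in 8 of the 10. The mean log2 CPM of the 10 genes, less its WT average, was -0.088, -0.063 and 0.15 across WT replicates 1 to 3 and 0.54, 0.18 and 0.30 across DTR replicates 1 to 3, so WT replicate 3 and DTR replicate 2 were close together. Within WT, replicate 3 had the highest value of 9 genes.

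**Figure D2:**
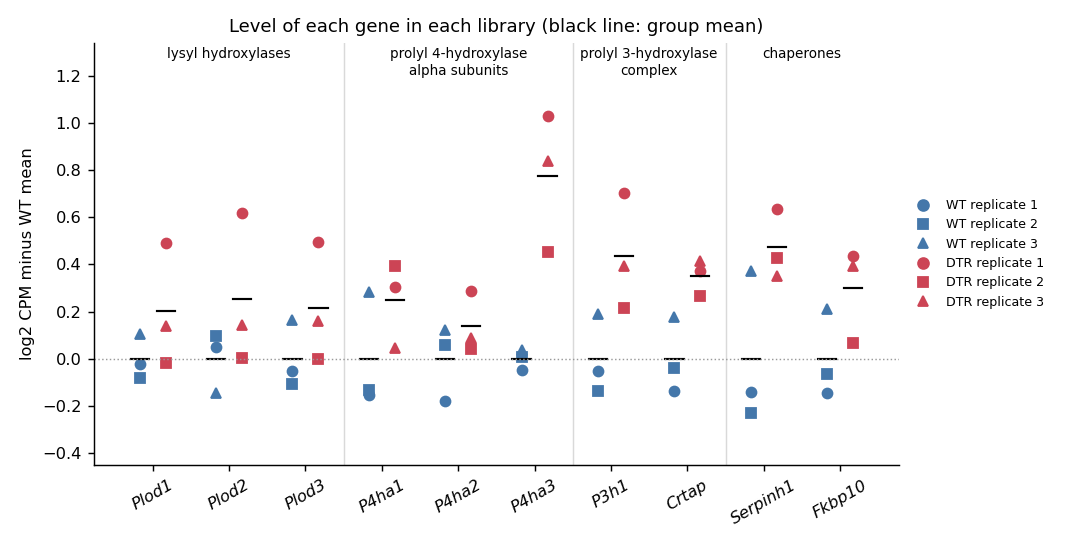
log2 CPM of each gene in each library minus its WT mean, with WT in blue, DTR in red and a black line at each group mean. All DTR symbols lie above all WT symbols for *P4ha3*, *P3h1* and *Crtap*, and the red circles of DTR replicate 1 lie above every WT symbol in each gene.

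The prolyl 4-hydroxylase alpha subunits gave both the largest and the smallest log2 fold change of the 10 genes. *P4ha3*, the least widely expressed alpha subunit in adult tissues, stood at 2459, 2557 and 2607 normalized counts across WT replicates 1 to 3 and at 5191, 3478 and 4545 across DTR replicates 1 to 3. The WT libraries were close together, with a coefficient of variation of 2.95%, and even the lowest DTR library was far above them. Its level was 2541 ± 74.9 in WT and 4405 ± 865 in DTR (SD, n = 3 each), a 1.73-fold difference or 0.79 ± 0.14 (SE) as a log2 fold change. The adjusted p was 0.260 in edgeR's quasi-likelihood test, in which *P4ha3* ranked at 41 by p among all genes tested, and 0.000213 in DESeq2, and it ran from 0.000213 to 0.821 over the 18 alternative settings. Without DTR replicate 2, edgeR gave a log2 fold change of 0.94 and an adjusted p of 0.00577, and 544 genes passed in that fit.

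*P4ha1*, the main alpha subunit of most tissues, stood at 4544, 4611 and 6149 normalized counts across WT replicates 1 to 3 and at 6235, 6624 and 5218 across DTR replicates 1 to 3. WT replicate 3 lay above DTR replicate 3, so the groups overlapped. The log2 fold change was 0.24 ± 0.15 (SE) (adjusted p = 0.553 in edgeR's quasi-likelihood test). *P4ha2*, the alpha subunit best known from cartilage, bone and endothelium, stood at 1634, 1924 and 2012 across the WT replicates and at 2258, 1901 and 1964 across the DTR replicates. Only DTR replicate 1 exceeded the WT range, and the log2 fold change of 0.14 was close to its standard error of 0.11 (adjusted p = 0.657 by the same edgeR test). Single libraries moved both genes, since *P4ha2* was at 0.053 without WT replicate 1 and also without DTR replicate 1, and *P4ha1* at 0.39 without WT replicate 3.

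All 3 lysyl hydroxylases overlapped between the groups, with log2 fold changes from 0.22 to 0.28. *Plod1*, which acts on lysines of the triple helix, stood at 10902, 10472 and 11900 normalized counts across WT replicates 1 to 3 and at 15575, 10931 and 12205 across DTR replicates 1 to 3. Its DTR replicate 2 was within the WT range and below the WT mean of 11092, and the log2 fold change was 0.22 ± 0.14 (SE) (adjusted p = 0.585 in edgeR's quasi-likelihood test). *Plod2*, the telopeptide lysyl hydroxylase, stood at 8297, 8588 and 7258 across the WT replicates and at 12314, 8053 and 8862 across the DTR replicates. DTR replicate 1 stood alone, well above the other 5 libraries, and the DTR group varied more (23.2% against 8.69% as coefficients of variation). The log2 fold change of *Plod2* was 0.28 ± 0.17 (SE), and it was 0.067 without DTR replicate 1. *Plod3*, whose protein also transfers sugars to hydroxylysine, had 3830 ± 390 in WT and 4483 ± 804 in DTR (SD, n = 3 each), and only DTR replicate 1, at 5375, was above the highest WT library, at 4273. Without DTR replicate 1 the log2 fold change of *Plod1* was 0.057, against 0.22 with it, and that of *Plod3* 0.072, against 0.23.

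In the prolyl 3-hydroxylase complex both genes separated the groups. *P3h1*, the catalytic subunit, stood at 3324, 3126 and 3923 normalized counts across WT replicates 1 to 3 and at 5606, 3994 and 4514 across DTR replicates 1 to 3. DTR replicate 2 exceeded WT replicate 3 by a narrow margin, and the other DTR libraries were clearly higher. The log2 fold change was 0.44 ± 0.14 (SE), the unadjusted p was 0.0162 and the adjusted p 0.380 in edgeR's quasi-likelihood test, and DESeq2 gave an adjusted p of 0.123. *Crtap*, the partner without catalytic activity, stood at 5078, 5427 and 6314 across the WT replicates and at 7223, 6705 and 7445 across the DTR replicates. It was the most even member within DTR, with a coefficient of variation of 5.33%. Its level of 5606 ± 637 in WT and 7124 ± 380 in DTR (SD, n = 3 each) gave a log2 fold change of 0.35 ± 0.10 (SE) (adjusted p = 0.354 in edgeR's test and 0.119 in DESeq2).

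The chaperones overlapped between the groups because of WT replicate 3. *Serpinh1* stood at 27414, 25743 and 39054 normalized counts across WT replicates 1 to 3 and at 46932, 40620 and 38554 across DTR replicates 1 to 3. WT replicate 3 was at the DTR level, just above DTR replicate 3, while the other WT libraries were far below. The log2 fold change was 0.45 ± 0.18 (SE) (unadjusted p = 0.0403 and adjusted p = 0.447 in edgeR's quasi-likelihood test), and it was 0.66 without WT replicate 3. *Fkbp10* stood at 8962, 9487 and 11490 across the WT replicates and at 13424, 10386 and 13022 across the DTR replicates. Here DTR replicate 2 lay within the WT range, and the log2 fold change was 0.30 ± 0.14 (SE) (adjusted p = 0.477 by the same edgeR test).

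**Figure D3:**
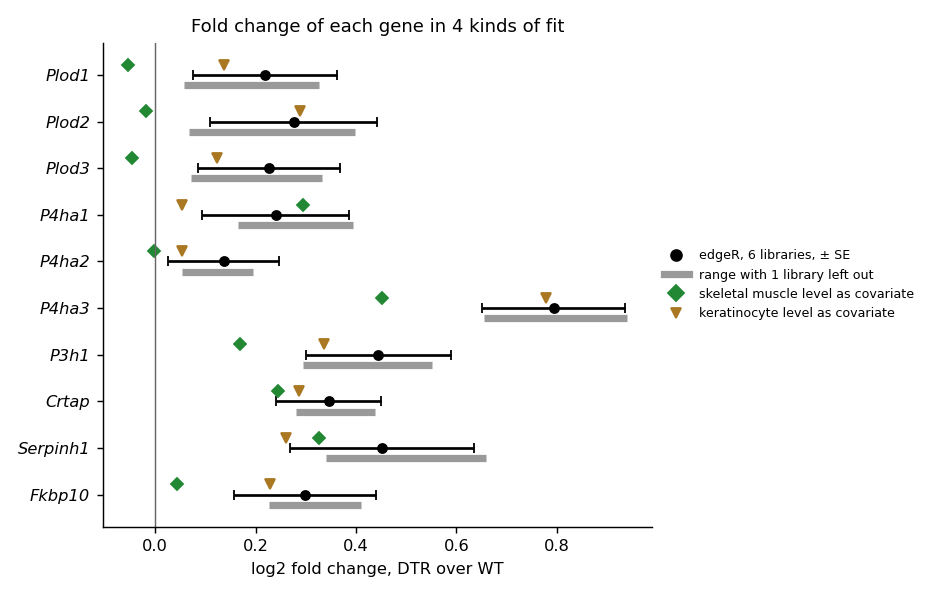
log2 fold change of each gene, DTR over WT. Black points are edgeR estimates from 6 libraries with bars of ± 1 standard error, grey bars span the 6 fits with 1 library left out, green diamonds are fits with the skeletal muscle level and brown triangles fits with the keratinocyte level as a covariate. *P4ha3* lies farthest to the right in every fit, and with the muscle covariate the 3 *Plod* genes and *P4ha2* fall at or just below 0.

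Shares within a family do not depend on the scaling of a library. Of the prolyl 4-hydroxylase counts per kb, *P4ha3* held 36.5%, 36.3% and 31.4% across WT replicates 1 to 3 and 46.9%, 36.7% and 47.8% across DTR replicates 1 to 3. The share was raised in DTR replicates 1 and 3, whereas in DTR replicate 2 it was only just above the highest WT library. The mean share was 34.7% ± 2.89 in WT and 43.8% ± 6.17 in DTR (SD, n = 3 each), with p = 0.1 in a two-sided exact permutation test, the smallest that 3 against 3 allows, and an adjusted p of 0.3 over the 6 shares. *P4ha2* held 12.7% ± 0.900 in WT and 10.2% ± 0.153 in DTR, again without overlap and with the same exact p-values. The shares of a family add up to the whole, so this is not separate from the higher share of *P4ha3*. The log2 fold change of *P4ha2* itself was 0.14. *P4ha1* held 52.6% ± 3.42 and 46.0% ± 6.31, and its groups overlapped (exact permutation p = 0.3). The difference in the share of *P4ha1*, -6.59 percentage points, was -10.2 without DTR replicate 2. The shares of the lysyl hydroxylases overlapped between the groups in all 3 genes, with *Plod1* at 41.2% ± 2.04 in WT and 40.6% ± 0.656 in DTR, *Plod2* at 37.5% ± 3.84 and 38.3% ± 1.13, and *Plod3* at 21.3% ± 1.81 and 21.1% ± 0.473 (SD, n = 3 each). The differences for these 3 genes lay between -0.57 and 0.71 percentage points, less than 1 SD of the WT libraries. They changed sign with single libraries, as *Plod2* was at 2.23 and *Plod1* at -1.43 without WT replicate 2, and *Plod2* at -1.45 and *Plod1* at 0.56 without WT replicate 3.

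**Figure D4:**
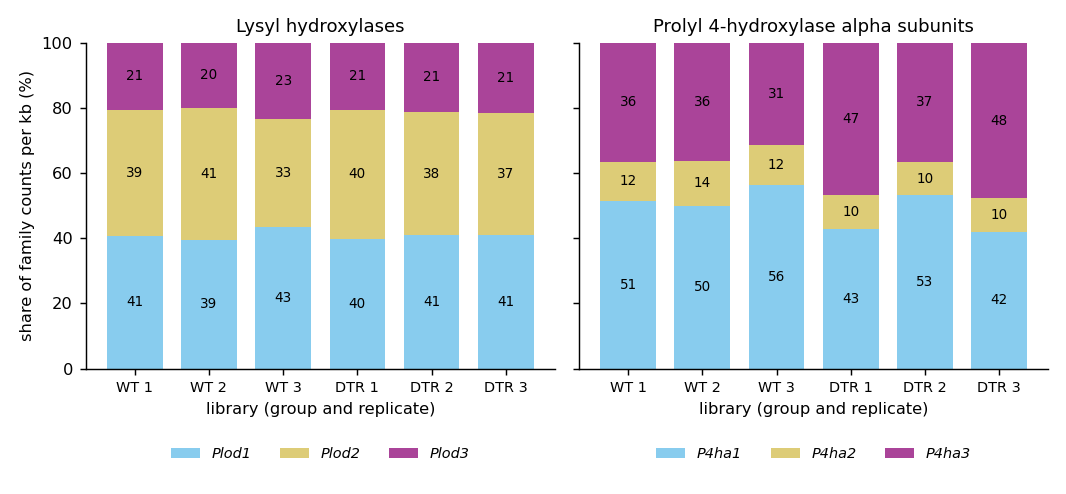
Stacked bars of the percentage of each family's counts per kb held by each gene in each library, lysyl hydroxylases on the left and prolyl 4-hydroxylase alpha subunits on the right, with each bar adding up to the whole family. The purple *P4ha3* segment is largest in DTR replicates 1 and 3, and the lysyl hydroxylase bars look alike in all 6 libraries.

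Set beside type I collagen, the main substrate, *P4ha3* was the only member whose ratio did not overlap between the groups. *Col1a1* averaged 492442 ± 36740 normalized counts over WT and 616609 ± 168104 over DTR, and *Col1a2* 747430 ± 57606 and 935182 ± 193556 (SD, n = 3 each), and both overlapped. The log2 ratio of each member's counts to the geometric mean of *Col1a1* and *Col1a2* differed between the groups by -0.16 to 0.18 in 9 of the 10 genes, and the exact permutation p-values of these 9 ran from 0.3 to 1. These differences moved with single libraries: without DTR replicate 2 that of *P4ha1* went from -0.049 to -0.31, that of *P4ha2* from -0.16 to -0.30 and that of *Serpinh1* from 0.18 to 0.0038, and without WT replicate 3 that of *Serpinh1* was 0.30. The log2 ratio of *P4ha3*, relative to the WT mean, was 0.044, 0.033 and -0.077 across WT replicates 1 to 3 and 0.41, 0.54 and 0.48 across DTR replicates 1 to 3, so that DTR replicate 2 was here the highest library. The difference of 0.48 had p = 0.1 in the two-sided exact permutation test, the smallest possible, and an adjusted p of 0.833 over the 10 members, and it stayed between 0.44 and 0.51 when any 1 library was left out.

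Among 9 partners of these enzymes the log2 fold changes ran from -0.25 to 0.41, with 6 positive and 3 negative, and neither edgeR nor DESeq2 called any of them (0 of 9). At an unadjusted p under 0.05 in edgeR's test 2 of the 9 were higher, against 5.52% of all genes. *P4hb*, protein disulfide isomerase and the beta subunit of prolyl 4-hydroxylase, averaged 43059 ± 5211 normalized counts over WT and 51473 ± 5314 over DTR (SD, n = 3 each) and overlapped (log2 fold change 0.26, standard error 0.14). *Ppib*, cyclophilin B of the prolyl 3-hydroxylase complex, was at 0.18 (0.13). *P3h3*, which acts with *P3h4* in a lysyl hydroxylase complex, stood at 4082, 4106 and 4303 across the WT replicates and at 6527, 4494 and 5521 across the DTR replicates, without overlap (log2 fold change 0.41, standard error 0.13, adjusted p = 0.389 in edgeR's quasi-likelihood test). *Colgalt1*, the galactosyltransferase of hydroxylysine, was the other partner without overlap (0.28, standard error 0.098), which makes 2 of 9 with every DTR library higher, against 8.96% of all genes. *P3h4* was at 0.21, *Hspa5* (the ER chaperone BiP) at 0.23, *Colgalt2* at -0.020, *P3h2* at -0.20 and *Tmem38b*, an ER cation channel, at -0.25. The median of the 9 was 0.21.

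Among 5 other FK506-binding proteins of the ER, 4 were higher and 1 lower, with 2 of 5 higher at an unadjusted p under 0.05, *Fkbp11* at 0.57 and *Fkbp14* at 0.38. For this and the following lists, the shares over all genes were 5.52% higher at an unadjusted p under 0.05 in edgeR's test and 1.12% called higher by DESeq2. Of 15 genes of procollagen export, 12 were higher and 3 lower (median 0.21), 5 had an unadjusted p under 0.05, and DESeq2 called *Lman1*, a cargo receptor of the ER, which rose by that test from 7495 ± 776 to 10122 ± 410 normalized counts (SD, n = 3 each, log2 fold change 0.43). The list's lowest gene was *Sar1b*, a GTPase of export vesicles, at -0.36. In the 12 ER lectins and disulfide isomerases all 12 were higher, from 0.032 for *Sdf2l1* to 0.35 for *Pdia4*, with a median of 0.16 and none at an unadjusted p under 0.05. The 14 cross-linking and processing genes had 12 higher, 2 lower and a median of 0.20, 5 were higher at an unadjusted p under 0.05, and DESeq2 called 2 of them higher, among them *Lox*, a lysyl oxidase that starts cross-links, at 0.66. *Pcolce2*, an enhancer of procollagen processing, was lowest at -0.73 (adjusted p = 0.464 in edgeR's test and 0.0893 in DESeq2). Every DTR library was below every WT library, as in 7.85% of all genes, but DTR replicate 2 (2813) nearly reached WT replicate 1 (2839). Of the 11 fibrillar collagen genes, 9 were higher and 2 lower with a median of 0.39, 6 had an unadjusted p under 0.05, and DESeq2 called *Col5a1* (0.66), *Col5a3* (0.87) and *Col24a1* (0.76). edgeR passed 0 genes of these lists at an adjusted p of 0.05.

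*P4ha1*, *P4ha2* and *Plod2* are known targets of the hypoxia-inducible factors, so a list of 20 hypoxia response genes was set beside them. Its median was below 0, with 7 genes higher, 13 lower and a median log2 fold change of -0.18. At an unadjusted p under 0.05, 6 of the 20 were lower and 0 higher in edgeR's test, against 5.45% of all genes lower, and in 6 every DTR library was below every WT library, against 7.85% of all genes. DESeq2 called 1 of the 20, against 1.53% of all genes called lower: *Hk2*, the hexokinase of muscle, which fell by 0.83 on the log2 scale. *Egln3*, the oxygen-sensing prolyl hydroxylase that marks hypoxia-inducible factor for degradation, had 1724 ± 627 in WT and 663 ± 493 in DTR (SD, n = 3 each). Its log2 fold change was -1.38 ± 0.63 (SE), and the groups overlapped (adjusted p = 0.495 in edgeR's quasi-likelihood test). *Car9* was at 0.88 ± 0.44 (SE) and *Ankrd37* at 0.27, both with overlap. Only DTR replicate 1, at 145 normalized counts, exceeded the WT range of *Car9*, which ended at 59.9. The list took 0.158% to 0.168% of the counts of the WT libraries and 0.136% to 0.151% in DTR. Some of its genes are also expressed in skeletal muscle, whose share differed between the libraries, and the part of muscle in this list was not tested.

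The members' level and the muscle share ran mostly in opposite directions. The highest level and the lowest muscle share were in DTR replicate 1, and the lowest level and the highest muscle share in WT replicate 1. DTR replicate 2 was an exception, above WT replicate 3 in both level (0.18 against 0.15) and muscle share (2.79% against 2.33%). With the skeletal muscle level as a covariate, the median log2 fold change of the 10 genes was 0.11 and 6 of them were positive. *P4ha3* had 0.45 in that fit, *Serpinh1* 0.33, *P4ha1* 0.29, *Crtap* 0.24, *P3h1* 0.17 and *Fkbp10* 0.043, while *Plod1* was at -0.054, *Plod2* at -0.017, *Plod3* at -0.045 and *P4ha2* at -0.0028. The adjusted p in edgeR's quasi-likelihood test was then 0.595 for *P4ha3* and from 0.802 to 0.997 for the other members. Low muscle shares were found only in DTR replicates 1 and 3, so this fit cannot fully separate muscle from genotype. With the keratinocyte level as a covariate all 10 were positive, from 0.053 for *P4ha1* to 0.78 for *P4ha3*. Removing the counts of the muscle genes before scaling left the median at 0.29. That fit changes only the scaling of the libraries, so it cannot show the part of muscle in the members' values. DTR replicate 2 had a muscle share of 2.79%, within the WT range. Its *P4ha3* (3478 normalized counts against at most 2607 in WT), *P4ha1* (6624 against 6149) and *Crtap* (6705 against 6314) were above the WT range. So were its *Serpinh1* (40620 against 39054) and *P3h1* (3994 against 3923). Its *Plod1*, *Plod2*, *Plod3*, *P4ha2* and *Fkbp10* were within the WT range. Whether muscle content bears on this split of a single library was not tested. Adipocyte genes took 0.117% to 0.211% of the counts in WT and 0.0326% to 0.144% in DTR. All 11 had a negative log2 fold change, with *Lpl* at -0.0044. DESeq2 called 5 lower, against 1.53% of all genes called lower. In 7 of the 11 every DTR library, replicate 2 included, was below every WT library, against 7.85% of all genes. *Car3* held much of the adipocyte share, at 37135 to 84793 counts in WT. It had 7335, 56512 and 9730 counts across DTR replicates 1 to 3, far higher in replicate 2, like the muscle share. Keratinocyte genes were lower in all 19 tested (1 called by DESeq2) and muscle genes in all 30 (0 called). The 15 macrophage genes (7 higher, 8 lower, median -0.0017) took 0.401% to 0.489% of the counts in WT and 0.433% to 0.474% in DTR. DESeq2 called 1 of them lower, the scavenger receptor gene *Cd163*, at a log2 fold change of -1.52 and with every DTR library below every WT library. The 12 endothelial genes (3 higher, 9 lower, median -0.060) took 0.0849% to 0.109% of the counts in WT and 0.0859% to 0.102% in DTR. The part of these tissues in the members' values was not tested beyond these fits.

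**Figure D5:**
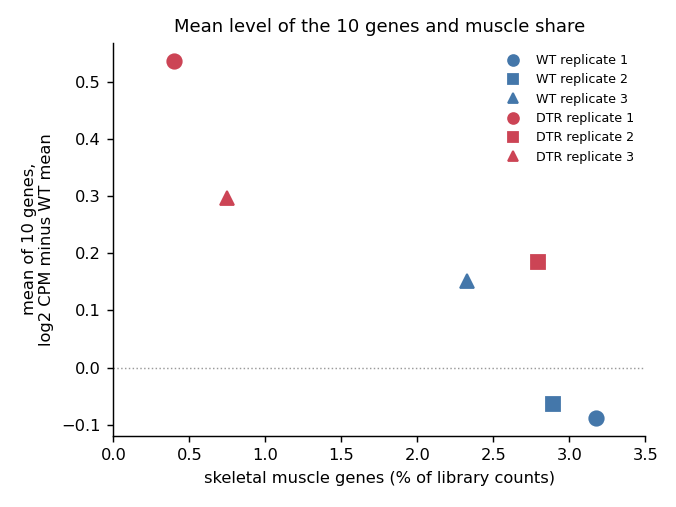
Each symbol is 1 library, with the percentage of its counts on 30 skeletal muscle genes on the horizontal axis and the mean log2 CPM of the 10 genes minus the WT mean on the vertical axis. DTR replicate 2 lies at 2.79% and 0.18, near WT replicate 3 at 2.33% and 0.15.

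Of the tendon cell genes, *Scx* averaged 2656 ± 433 normalized counts over WT and 3472 ± 62.4 over DTR (SD, n = 3 each). Like *P3h1* and *Crtap* it had every DTR library above every WT library, as in 8.96% of all genes. *Tnmd* overlapped. The list of 15 tendon cell genes had 10 higher and 5 lower with a median of 0.30. *Itm2a* (0.83) and *Thbs4* (0.65) were highest, and *Tppp3* (-0.43) and *Chad* (-1.42) were lowest. For *Chad* every DTR library was below every WT library, as in 7.85% of all genes. The 12 tested cartilage and bone genes had 5 higher and 7 lower with a median of -0.28.

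*Fkbp10* and *P3h1* followed the common profile of the 10 genes most closely, with root-mean-square differences of 0.082 and 0.088 in log2 CPM over the 6 libraries, and *P4ha3* least, at 0.32. Among the other 14399 genes that averaged 50 or more normalized counts, the profile most like the members' mean was that of *Aldh18a1*, which makes the precursor of proline, at 0.026. It stood at 2819, 2937 and 3399 normalized counts across WT replicates 1 to 3 and at 4454, 3593 and 3710 across DTR replicates 1 to 3, and the 6 libraries came in the same order as by the members' mean. *Nus1*, which takes part in dolichol synthesis for protein glycosylation, followed at 0.049, then *Fads2*, a fatty acid desaturase, at 0.049, *Actg1*, a cytoplasmic actin, at 0.050 and *Fam149a* at 0.052. These genes were picked as the closest of many over 6 libraries, and *Actg1* has near-identical relatives, so its own counts are uncertain.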

How the data were processed

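Bulk RNA-seq libraries of FDL tendons (3 DTR, 3 WT) were made from 200 ng total RNA. The labels name a TruSeq Stranded mRNA kit and also a SMARTER kit. The authors demultiplexed single-end reads with bcl2fastq 2.19.0, cleaned them with FastP 0.20.0 and counted them with featureCounts of subread 1.6.4. The aligner, genome build, annotation and strand setting are not given in the sources used here. The authors deposited whole-number counts per gene without normalization, and a signal table in which each library is scaled by 1 size factor (DESeq2 1.22.1) (0.973 to 1.06, checked against both tables). Columns were matched to samples by the sample descriptions.

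Tests ran in R 4.3.3, the main one in edgeR 4.0.16 (filterByExpr, TMM, robust quasi-likelihood fit, genotype as the only term, Benjamini-Hochberg over all 17496 genes tested, threshold 0.05), with DESeq2 1.42.0 and limma 3.58.1 as alternatives. Standard errors are the absolute log2 fold change over the square root of F. Shares and ratios were compared by two-sided exact permutation tests. Exon lengths are unions of GENCODE vM21 exons matched by symbol (all 10 members). In that annotation exons of *Plod3* share 11.7% of their bases with *Znhit1*, those of *Fkbp10* 6.58% with *Nt5c3b* and those of *Plod2* 6.42% with *Gm38391*, each on the opposite strand, so these counts may hold reads of the neighbour if strand was ignored. The scripts were tested on simulated counts with known changes. Counts of replicate libraries differed by far more than sampling noise (chi-square per degree of freedom 40.3 to 205). The libraries came from separate tendons.

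The 10 members and the 16 gene lists (members, complex partners, FK506-binding proteins, procollagen export, ER lectins and isomerases, fibrillar collagens, cross-linking and processing, hypoxia response, other 2-oxoglutarate oxygenases, and 7 lists of tissue markers) were chosen with earlier results of these data known. Named genes were all members, all complex partners and fibrillar collagens if tested, *Scx*, *Tnmd* and the 5 genes of most similar profile. Of each other list, up to 2 genes at each end of the fold changes were named if their normalized counts averaged 50 or more. *Car3* of the adipocyte list was named for its large counts. Alternatives were DESeq2, limma-voom, RLE, library size alone, no filter, at least 10 counts in every library, a replicate block, each library left out, the deposited signal values as log2(value + 1) in limma, muscle counts removed, and muscle, keratinocyte or *Xist* covariates. For shares and ratios, exon length was used or not used.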

Additional observations from a re-analysis of the deposited data

How the results depend on the processing

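All 10 log2 fold changes stayed positive under 17 of the 18 alternative fits, and their median lay between 0.22 (without DTR replicate 1) and 0.40 (without WT replicate 3) when 1 library was left out. The exception was the skeletal muscle covariate, with a median of 0.11 and *Plod1* at -0.054, *Plod2* at -0.017, *Plod3* at -0.045 and *P4ha2* at -0.0028, and the cause was not tested. edgeR called 83 genes and 1 member (*P4ha3*) without a filter on low counts. Over the fits with 1 library left out it called 0 to 544 genes and 0 to 1 members, with 544 genes and *P4ha3* only without DTR replicate 2. DESeq2 called 466 genes and 1 member, *P4ha3*. The labels do not say whether the replicate numbers pair the samples. Deviations from the group means correlated at -0.19, -0.15 and -0.68 within numbers 1 to 3, and 0 of the 6 libraries correlated best with its own number. These values cannot settle whether animals were matched, because the deviations in a group of 3 add up to 0. The replicate block called 1 gene, 0 members, and changed no call of a member. Without division by exon length the share of *P4ha2* differed by -3.23 percentage points, against -2.47 with it, and the ratios to type I collagen are the same by construction. Depth was ample for these genes, and 3 libraries per group limit the precision.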

Other observations

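The collagen hydroxylases belong to a wider family of 2-oxoglutarate oxygenases. Of 17 other members of that family, which hydroxylate transcription factors, histones, nucleic acids or lipids, 7 had a positive and 10 a negative log2 fold change, with a median of -0.051. At an unadjusted p under 0.05 in edgeR's test 2 of the 17 were lower and 0 higher, against 5.45% of all genes lower and 5.52% higher, and DESeq2 called 0 at an adjusted p under 0.05. *Asph*, an ER enzyme that hydroxylates aspartate and asparagine, was highest at 0.21 with a standard error of 0.14, and *Jmjd6*, a lysyl hydroxylase of the nucleus, followed at 0.092 (0.090). *Egln3*, also in the hypoxia list, was lowest at -1.38 with a standard error of 0.63, and its groups overlapped. *Phyh*, a peroxisomal enzyme of phytanic acid breakdown, averaged 2607 ± 299 normalized counts over WT and 1991 ± 233 over DTR (SD, n = 3 each), a log2 fold change of -0.39 ± 0.12 (SE) (adjusted p = 0.365 in edgeR's quasi-likelihood test).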
